A study of Homo sapiens with 12 samples.

Results

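The splicing factor genes described here are 58 of the 23524 gene symbols listed for both cell lines. They were chosen by name alone: symbols starting with HNRNP or SNRP, numbered SRSF symbols, and numbered SF3A or SF3B symbols, leaving out names with a hyphen. They comprise 12 SRSF genes, 24 HNRNP genes, 9 SF3 genes and 13 SNRP genes. SRSF10 was listed on 2 rows, of which the row with the higher mean was used, and every other member stood on a single row. RNA-seq libraries were made from Granta-519 and JeKo-1, established human cell lines. Both derive from mantle cell lymphoma, a cancer of B cells in which a translocation drives cyclin D1. In each line, lentivirus brought in an shRNA that targets cyclin D1 (shCycD1), and control cells received another shRNA (shCtrl). All cells, controls included, were selected with puromycin and grown in medium with 10% FBS, and no time after infection, number of hairpins or hairpin sequence was given in the sources used here. Each of the 4 groups had 3 libraries, 12 in all. Nothing in the labels says that replicates were separate infections, so p-values measure the spread between these libraries, which may be technical.

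Pre-mRNA splicing is carried out by the spliceosome, whose small nuclear ribonucleoproteins (snRNPs) recognise the splice sites and branch point and then catalyse the joining of exons. SNRP genes encode the Sm proteins that ring the snRNAs and proteins particular to the U1 and U2 particles. SF3A and SF3B are the U2 subcomplexes that hold the branch point. SR proteins (SRSF) bind exonic enhancers and mostly favour exon inclusion, whereas many hnRNP proteins bind silencers, package nascent transcripts or act in mRNA export and stability. Many SRSF and HNRNP transcripts carry alternative exons that lead to nonsense-mediated decay, through which the proteins limit their own expression, and values per gene do not separate such isoforms.

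Values below are RPKM, reads scaled by gene length and library size, obtained by reversing a logarithm. For Granta-519, under a natural logarithm, 83.6% to 89.6% of the low values of a library lay within 0.1 of a whole multiple of the best-fitting value of 1 read, against 56.1% to 59.4% under base 2 and 42.7% to 55.9% under base 10. For JeKo-1 the shares were 27.9% to 32.7% over the 3 bases, so its base was not settled in this way. The spread of 55 ERCC spike-in RNAs was therefore compared, as a ratio of JeKo-1 to Granta-519 libraries. Its median was 0.97 (range 0.92 to 1.01) under a natural logarithm, 0.72 (0.68 to 0.75) under base 2 and 2.12 (2.02 to 2.21) under base 10. The base was taken as natural, the reading nearest to equal spread. Reversed in this way, JeKo-1 values also came back as rounded numbers, which values stored in another base would not give. HNRNPA1, for example, came back at 309.23, 308.849 and 305.052 RPKM in shCycD1 libraries. The levels of JeKo-1 and the sizes of its changes depend on the natural reading. The Granta-519 values are per length of the gene including introns, and the tables were normalized separately, so no level is compared between genes or between lines. The targeted gene, CCND1 (cyclin D1), was at 213, 298 and 292 RPKM in Granta-519 shCycD1 libraries, against 924, 1043 and 874 RPKM in shCtrl libraries. The JeKo-1 levels were 65.4, 64.8 and 67.4 RPKM in shCycD1 libraries, against 395, 330.1 and 315 RPKM in shCtrl libraries. On the log2 scale it fell by 1.83 ± 0.14 (SE) and, in JeKo-1, by 2.38 ± 0.09 (limma, adjusted p = 0.000257 and 1.96e-06). With libraries scaled to the spike-in RNAs, the changes of CCND1 were -1.08 in Granta-519 and -2.51 in JeKo-1. Pearson correlations between libraries of a group, over log2 values of all tested genes, were 0.98 to 0.99 in the Granta-519 libraries, and 0.97 in those of JeKo-1. Of 8 B-cell markers other than CCND1, 7 passed the filter in Granta-519 and all 8 in JeKo-1. Their summed level was 2178 to 2261 RPKM in shCycD1 libraries and 2387 to 2503 RPKM in shCtrl libraries of Granta-519, and 1286 to 1458 RPKM and 917 to 1056 RPKM in shCycD1 and shCtrl libraries of JeKo-1; the part of this shift in the results was not tested. T and NK cell markers summed to at most 1.43 RPKM in Granta-519 and 2.94 RPKM in JeKo-1. Myeloid markers summed to 40.9 to 47.7 RPKM in shCycD1 libraries and 46.9 to 52.8 RPKM in shCtrl libraries of Granta-519, nearly all of it CSF1R, with 5 of 8 markers under 1 RPKM throughout, and to at most 2.41 RPKM in JeKo-1. Epithelial, fibroblast and kidney markers summed to 539 to 623 RPKM and 563 to 636 RPKM in shCycD1 and shCtrl libraries of Granta-519, and to 153 to 178 RPKM and 143 to 174 RPKM in those of JeKo-1. Nearly all of that sum was VIM (vimentin, a filament protein that many blood cells also make), and 6 of the 9 markers were under 1 RPKM throughout in either line. The groups overlapped in these sums in both lines, and their part in the results was not tested. In bulk RNA, fewer cells of a kind and less RNA per cell cannot be told apart.

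Most splicing factor genes were lower after cyclin D1 silencing in both lines on the RPKM scale as deposited, though in Granta-519 not when libraries were scaled to spike-in RNAs. In Granta-519, 33 of the 56 members tested were called lower and 2 higher at an adjusted p under 0.05, by limma on log2(RPKM + 0.5) over all genes with at least 1 RPKM in 3 or more of the 6 libraries. Over all 12668 genes tested there, 40.6% were called, 18.2% lower and 22.4% higher. In JeKo-1, 40 of 54 members were called lower and 2 higher, where 64.6% of all 11866 genes were called, 27.8% lower and 36.7% higher. The median log2 change of the members was -0.32 in Granta-519 (range -0.88 to 0.50) and -0.57 in JeKo-1 (range -1.85 to 0.76), against 0.03 and 0.09 over all genes. The 31 members called lower in both lines compare with 13.1% of the 10653 genes tested in both, and the 1 called higher in both, SRSF8, with 14.8%. A further 9 members were called lower only in JeKo-1, 1 (SF3A2) lower only in Granta-519, 1 (SF3B5) higher only in Granta-519, and 1 (SNRPN) higher only in JeKo-1, while 10 were called in neither. None was called lower in Granta-519 and higher in JeKo-1, or the reverse, against 1.86% and 1.14% of all genes. A call in a single line does not show that the lines differ. Near-copies of HNRNP genes are included in these counts and medians, and are not evidence apart from the genes they copy.

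The direction in Granta-519 depended on what the libraries were scaled to. ERCC spike-in RNAs took 5.42%, 6.50% and 5.68% of the summed RPKM in shCycD1 libraries, against 8.05%, 11.9% and 8.71% in shCtrl libraries of that line. They took 4.54%, 5.71% and 7.42% in shCycD1 libraries, against 4.68%, 6.16% and 6.83% in shCtrl libraries of JeKo-1. Scaling to these spike-ins moved the median change over all genes of Granta-519 to 0.72, and the members' median to 0.40, with 16 members called higher and 0 lower, and 46 of 56 members changed sign. Of all genes in Granta-519, that scaling called 57.9% higher and 1.24% lower. In JeKo-1 the same scaling gave a median of -0.03 over all genes and -0.70 over the members, with 0 called higher and 23 lower. There 14.3% of all genes were called higher and 15.1% lower. The 16 higher in Granta-519 were SRSF5, SRSF6, SRSF8, SRSF9, HNRNPA0, HNRNPH2, HNRNPK, HNRNPUL2, SF3A1, SF3B2, SF3B3, SF3B4, SF3B5, SF3B14, SNRPE and SNRPN, from 0.55 (HNRNPA0) to 1.25 (SRSF8). The JeKo-1 calls lost were those of SRSF4, SRSF8, HNRNPA1L2, HNRNPA1P10, HNRNPH1, HNRNPH3, HNRNPK, HNRNPL, HNRNPR, HNRNPUL1, SF3A3, SF3B2, SF3B4, SF3B14, SNRPB, SNRPC, SNRPD2, SNRPD3 and SNRPN, all with the same sign as before. Relative to that shift, 48 of 56 members in Granta-519 and 50 of 54 in JeKo-1 lay below the median of all genes. Scaling by a single factor per library leaves a gene's place relative to that median nearly fixed, so these counts are no separate test. Directions given below for Granta-519 are therefore those on the RPKM scale as deposited. Whether the spike-in amount was set per cell or per mass of RNA is not given in the sources used here.

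**Figure D1:**
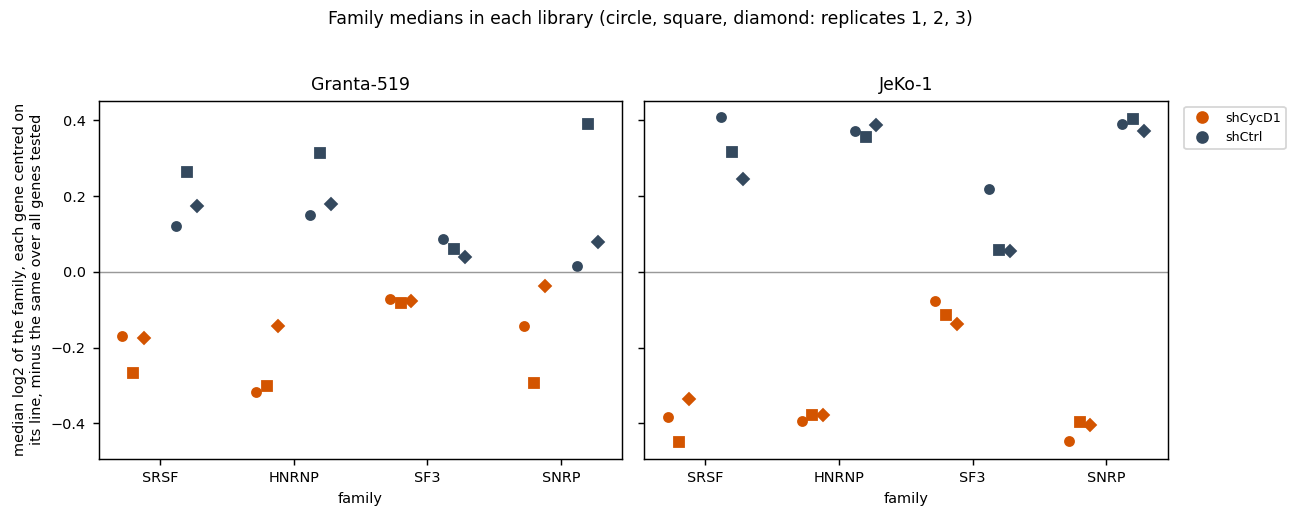
Median log2 level of each family in each library, with every gene centred on its mean over the 6 libraries of the line and the same median over all tested genes subtracted (vertical axis, log2 units), for shCycD1 (orange) and shCtrl (dark) libraries of Granta-519 and JeKo-1. Relative to all genes, each family sat below 0 in all 3 shCycD1 libraries and above 0 in all 3 shCtrl libraries of either line; scaled to spike-ins, the change itself is positive in Granta-519 (median 0.40).

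The groups of libraries did not overlap for most members. In Granta-519, 37 of 56 members had all 3 shCycD1 libraries below all 3 shCtrl libraries and 3 had them all above, so that 71.4% of members were separated, against 54% of all genes tested. In JeKo-1, 41 of 54 members had all shCycD1 libraries below and 2 all above, 79.6% of members, against 69.6% of all genes. The HNRNP family had a median per library, relative to all genes, of -0.32, -0.30 and -0.14 in Granta-519 shCycD1 libraries, against 0.15, 0.31 and 0.18 in shCtrl libraries. In JeKo-1 the same medians were -0.39, -0.38 and -0.38 in shCycD1 libraries, against 0.37, 0.36 and 0.39 in shCtrl libraries. The SF3 family differed least, with -0.07, -0.08 and -0.08 in Granta-519 shCycD1 libraries, against 0.09, 0.06 and 0.04 in shCtrl libraries.

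**Figure D2:**
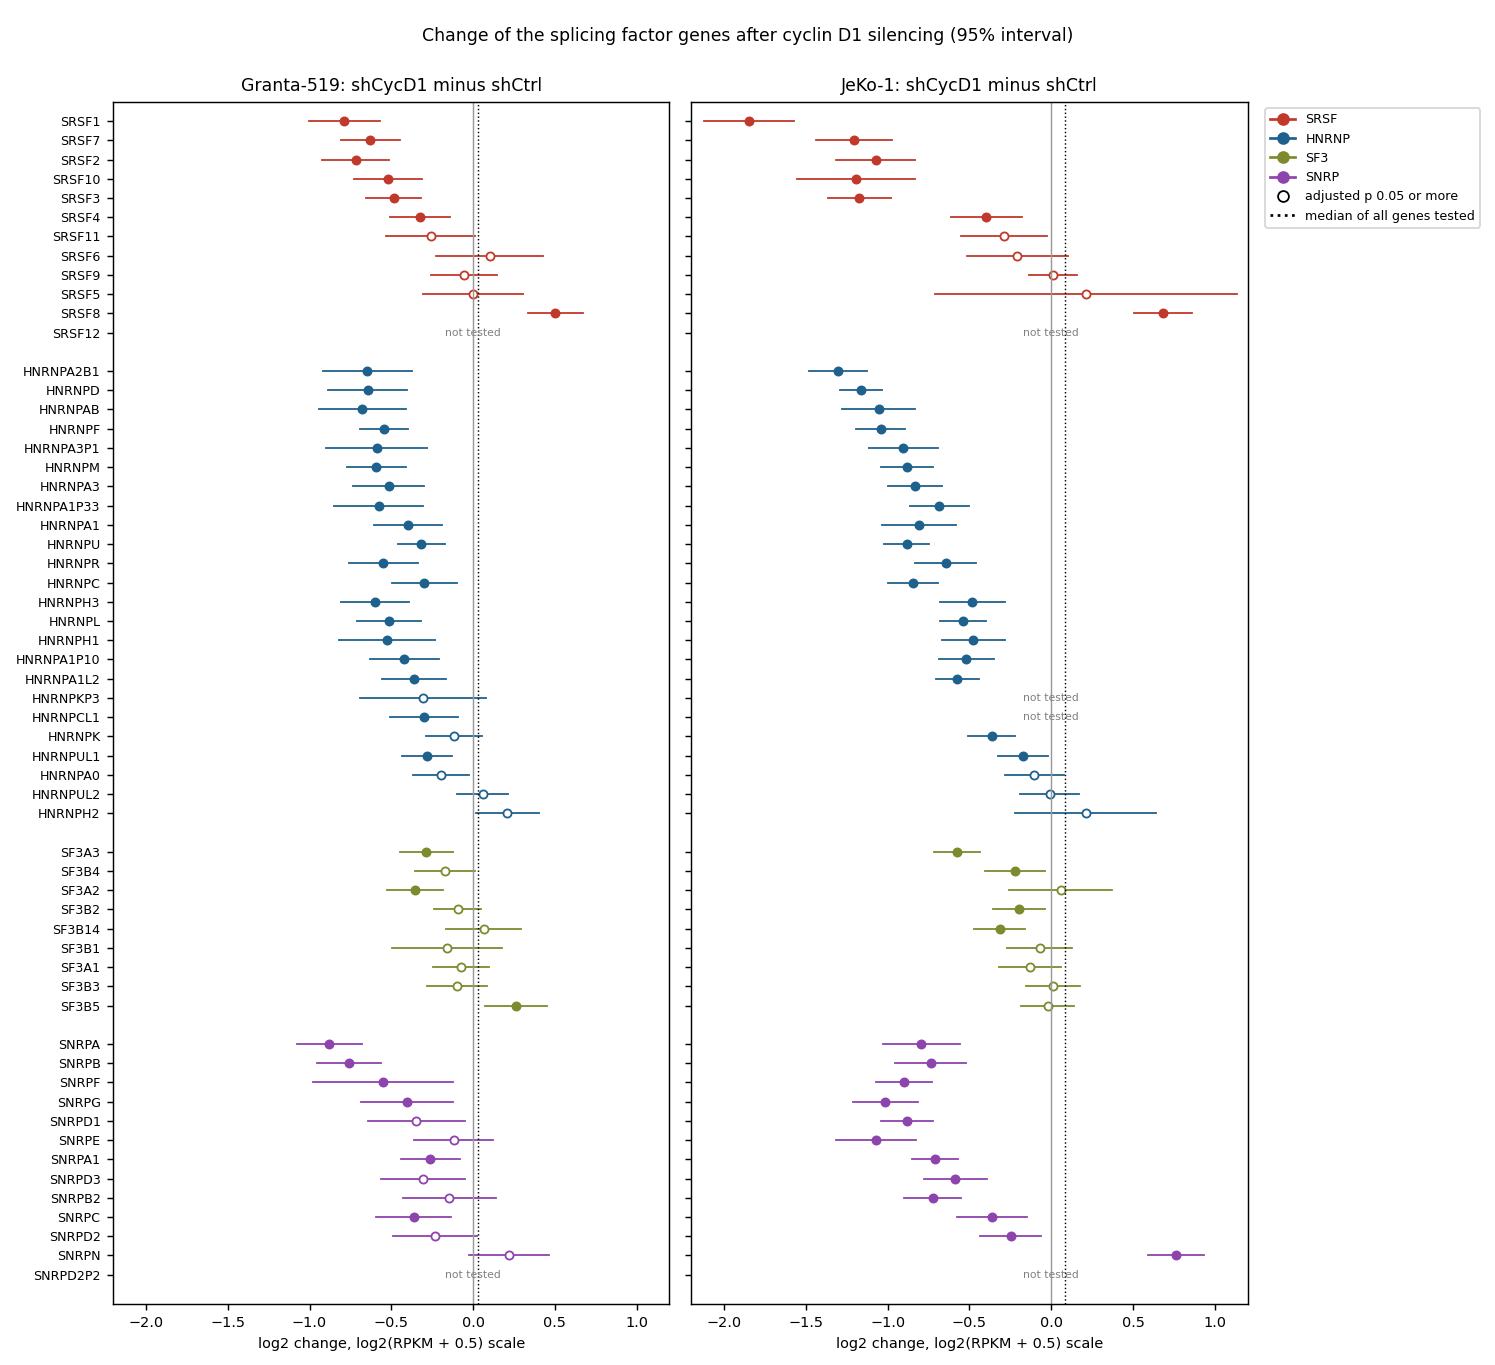
Log2 change of each member (shCycD1 minus shCtrl, on the log2(RPKM + 0.5) scale, with its 95% interval) in Granta-519 (left) and JeKo-1 (right), coloured by family, with filled circles for adjusted p under 0.05 and the median of all genes as a dotted line. Most SRSF, HNRNP and SNRP members lie left of 0, and SRSF8 lies right of it in both lines; scaled to spike-ins, 46 of the 56 Granta-519 members change sign.

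To show what lies in front of these genes, the 300 bases from 250 before to 50 after the start of transcription were taken from RefSeq (GRCh38.p14) for the 49 of 58 members that matched by symbol or older name. Motifs were searched on both strands in exact letters: E2F (TTTCCCGC, TTTCGCGC, TTTGCCGC or TTTGGCGC), the E-box CACGTG, ETS CCGGAAGT and the longer NRF1 and YY1 motifs. E2F factors are the transcription factors released when cyclin D1 and its kinase partners phosphorylate the retinoblastoma protein. An E2F motif was found in 5 of 49 members (10.2%), against 5.28% of 11061 promoters of genes tested in both lines and 3.31% of all 35116 promoters. It was in 3 of the 26 matched members called lower in both lines and in 2 of the other 23. The ETS motif was in 12 members (24.5%), against 8.72% and 4.14% of those promoters, of which 5 were among the 26 and 7 among the other 23. The E-box was in 7 members (14.3%, against 9.94% and 7.26%), the YY1 motif in 1 (2.04%, against 2.02% and 0.849%) and the NRF1 motif in 0 (against 2.3% and 1.24%). For each member 1 promoter was taken, whereas the shares set beside them count every listed promoter, more than 1 for some genes. The 49 also include HNRNPCL1 and SRSF12, which were not tested in both lines. These counts describe letters in a window and not binding.

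The promoters of 5 members follow, 5′ to 3′ on the strand of the gene in GRCh38.p14, with motif matches in capitals. SNRPB (chr20:2470740-2471039, minus strand) is shown as a gene lower in both lines that holds an ETS motif starting 41 bases before the start and an E2F motif in its first transcribed bases, SRSF10 (chr1:23980278-23980577, minus strand) for its E2F motif starting 119 bases before it, and HNRNPD (chr4:82373942-82374241, minus strand) for its ETS motif and E-box. SRSF1 (chr17:58007197-58007496, minus strand), the member with the largest fall in JeKo-1, and SRSF8 (chr11:95066627-95066926, plus strand), the member that rose in both lines, held no match to any of these motifs.
SNRPB: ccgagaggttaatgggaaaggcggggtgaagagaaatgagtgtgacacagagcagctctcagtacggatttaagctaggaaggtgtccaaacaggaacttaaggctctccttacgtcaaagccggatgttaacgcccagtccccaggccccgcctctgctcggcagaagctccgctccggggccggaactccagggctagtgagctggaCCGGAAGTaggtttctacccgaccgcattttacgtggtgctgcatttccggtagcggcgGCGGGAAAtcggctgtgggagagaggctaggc
SRSF10: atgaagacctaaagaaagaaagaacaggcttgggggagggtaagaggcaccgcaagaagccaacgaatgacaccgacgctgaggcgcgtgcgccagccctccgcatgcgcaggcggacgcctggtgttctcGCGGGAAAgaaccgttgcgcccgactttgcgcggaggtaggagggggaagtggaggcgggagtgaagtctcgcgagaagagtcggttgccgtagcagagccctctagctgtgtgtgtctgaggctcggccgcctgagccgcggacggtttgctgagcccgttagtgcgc
HNRNPD: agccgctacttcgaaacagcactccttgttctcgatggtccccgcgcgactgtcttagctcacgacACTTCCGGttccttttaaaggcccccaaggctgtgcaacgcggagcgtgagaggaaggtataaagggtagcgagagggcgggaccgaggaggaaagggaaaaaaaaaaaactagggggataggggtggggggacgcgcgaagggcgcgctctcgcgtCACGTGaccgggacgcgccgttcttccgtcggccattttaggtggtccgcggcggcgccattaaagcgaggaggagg
SRSF1: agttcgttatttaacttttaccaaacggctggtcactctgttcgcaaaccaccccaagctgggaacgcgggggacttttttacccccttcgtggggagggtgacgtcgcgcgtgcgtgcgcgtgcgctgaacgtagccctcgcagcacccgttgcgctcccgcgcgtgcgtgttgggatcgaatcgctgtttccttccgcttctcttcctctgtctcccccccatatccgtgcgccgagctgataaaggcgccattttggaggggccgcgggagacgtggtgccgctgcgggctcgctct
SRSF8: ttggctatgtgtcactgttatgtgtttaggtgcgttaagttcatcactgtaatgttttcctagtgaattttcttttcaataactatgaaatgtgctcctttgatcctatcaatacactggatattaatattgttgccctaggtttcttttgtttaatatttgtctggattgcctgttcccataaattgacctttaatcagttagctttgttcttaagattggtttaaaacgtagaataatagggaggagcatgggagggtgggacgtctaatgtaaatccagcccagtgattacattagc

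Among the SR protein genes, 6 of 11 tested were called lower and 1 higher in each line, with a median change of -0.33 in Granta-519 (0.40 when scaled to spike-ins) and -0.40 in JeKo-1. The 6 called lower were the same in both lines: SRSF1, SRSF2, SRSF3, SRSF4, SRSF7 and SRSF10. SRSF1 encodes the founding member of the family, formerly ASF/SF2, which binds exonic enhancers and helps to recruit the U1 particle. Its level was 457, 433 and 518 RPKM in Granta-519 shCycD1 libraries, against 788, 774 and 866 RPKM in shCtrl libraries. Levels in JeKo-1 were 31.1, 38.2 and 30.6 RPKM in shCycD1 libraries, against 109, 135 and 119 RPKM in shCtrl libraries. Every shCycD1 library lay below every shCtrl library in both lines, and the changes were -0.79 ± 0.09 (SE) and -1.85 ± 0.12 (limma, adjusted p = 0.000946 and 1.65e-05). SRSF2, which encodes the enhancer-binding protein SC35, fell by 0.72 (Granta-519) and 1.07 (JeKo-1) (adjusted p = 0.00107 and 0.000106). SRSF7, whose product also takes part in mRNA export, was at 113, 119 and 127 RPKM in Granta-519 shCycD1 libraries, against 174, 188 and 193 RPKM in shCtrl libraries. In the JeKo-1 line the values were 63.5, 68.4 and 53.2 RPKM in shCycD1 libraries, against 140.3, 145 and 141 RPKM in shCtrl libraries. Again no library of one group reached the other, and the changes were -0.63 ± 0.08 and -1.20 ± 0.10 (adjusted p = 0.00107 and 5.24e-05). SRSF3, the smallest SR protein and another export adaptor, fell by 0.49 (Granta-519) and 1.17 (JeKo-1) (adjusted p = 0.00225 and 2.71e-05). SRSF10, which acts as a repressor when dephosphorylated, fell by 0.52 and 1.19 (adjusted p = 0.00398 and 0.00042), and SRSF4 by 0.33 and 0.40 (adjusted p = 0.016 and 0.00741). When scaled to spike-ins, the Granta-519 changes of SRSF2, SRSF3, SRSF4, SRSF7 and SRSF10 were positive, from 0.03 to 0.40, and that of SRSF1 was -0.04.

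SRSF8 was the only SRSF gene called higher in either line. It encodes an SR protein close to SRSF2, from a gene that in human arose by retroposition, so reads of the pair could be split between them. Its level was 179, 167 and 170.0 RPKM in Granta-519 shCycD1 libraries, against 117, 118 and 129 RPKM in shCtrl libraries. JeKo-1 values were 26.3, 25.4 and 24.9 RPKM in shCycD1 libraries, against 15.5, 16.6 and 15.1 RPKM in shCtrl libraries. The shCycD1 libraries were all above the shCtrl libraries in both lines, with changes of 0.50 ± 0.07 and 0.68 ± 0.07 (limma, adjusted p = 0.00189 and 0.000199). When scaled to spike-ins, the change was 1.25 in Granta-519 and 0.56 in JeKo-1 (adjusted p = 0.168). SRSF5, SRSF6, SRSF9 and SRSF11 were called in neither line, although the first 3 were higher in Granta-519 when scaled to spike-ins (0.75, 0.85 and 0.69). SRSF5 was at 294, 142 and 195 RPKM in JeKo-1 shCycD1 libraries, against 259, 97.2 and 206 RPKM in shCtrl libraries. The spread within each group was wide and ran in the same order of replicate numbers, with a change of 0.21 (95% interval -0.71 to 1.14). With replicate number as a block and GC correction, it was called higher there (0.41, limma, adjusted p = 0.0305). GC correction alone gave no call (adjusted p = 0.431). SRSF6 had changes of 0.10 in Granta-519 and -0.21 in JeKo-1 (95% intervals -0.23 to 0.43 and -0.52 to 0.10). The JeKo-1 change of SRSF6 was called lower with replicate number as a block (-0.21, adjusted p = 0.032), and was 0.01 after GC correction. The changes of SRSF9 were -0.06 and 0.01 (intervals -0.26 to 0.14 and -0.14 to 0.15), so a change as large as that of SRSF1 lay outside its interval in either line. In JeKo-1, however, it was called higher under quantile normalization (0.24, adjusted p = 0.00588) and with the block and GC correction (0.15, adjusted p = 0.0254). SRSF11 had changes of -0.26 and -0.29 (adjusted p = 0.116 and 0.0551). Its call depended on single libraries and on the processing. It passed without shCtrl replicate 2 of Granta-519 (-0.36), and without shCtrl replicate 1 (-0.38) or shCycD1 replicate 2 (-0.37) of JeKo-1. With all libraries, SRSF11 was called lower in JeKo-1 under median ratio scaling (-0.37), the block (-0.29) or library weights (-0.31). GC correction gave 0.02 there (adjusted p = 0.803). In Granta-519 it was called lower with library weights (-0.25) or GC correction (-0.26). SRSF12 was under 1 RPKM in every library and was not tested.

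Of the HNRNP genes, 19 of 24 tested were called lower and 0 higher in Granta-519 and 19 of 22 lower and 0 higher in JeKo-1. The HNRNP median change was -0.47 in Granta-519 (0.25 when scaled to spike-ins) and -0.66 in JeKo-1, where 11 were lower when scaled to spike-ins. Near-copies of HNRNPA1, HNRNPA3 and HNRNPC, described below, are included in these numbers. The A/B group, whose best-studied proteins bind UAG-containing silencers and package nascent RNA, includes HNRNPA1, HNRNPA2B1, HNRNPA3, HNRNPAB and HNRNPA0. HNRNPA2B1 was at 448, 475 and 558 RPKM in Granta-519 shCycD1 libraries, against 683, 812 and 824 RPKM in shCtrl libraries. In JeKo-1 it was at 242, 274 and 271 RPKM in shCycD1 libraries, against 619, 643 and 685 RPKM in shCtrl libraries. The groups were apart in both lines, with changes of -0.65 ± 0.11 (0.10 when scaled to spike-ins) and -1.31 ± 0.08 (limma, adjusted p = 0.0048 and 1.07e-05). HNRNPA1, the best-known antagonist of SR proteins, was at 426, 376 and 435 RPKM in Granta-519 shCycD1 libraries, against 520.2, 585 and 526 RPKM in shCtrl libraries. Its JeKo-1 values were 309, 309 and 305 RPKM in shCycD1 libraries, against 480.1, 622 and 527 RPKM in shCtrl libraries. The changes were -0.40 and -0.81 (adjusted p = 0.0112 and 0.000306), and the Granta-519 change was 0.35 when scaled to spike-ins. With the replicate block, the Granta-519 call of HNRNPA1 was lost (limma, adjusted p = 0.0513). HNRNPA3 changed by -0.52 and -0.83 (adjusted p = 0.00482 and 6.03e-05), and HNRNPAB by -0.68 and -1.06 (adjusted p = 0.00377 and 8.17e-05), with Granta-519 changes of 0.23 and 0.07 when scaled to spike-ins. HNRNPA0, an intronless A/B gene, was not called in either line (-0.20 and -0.10, adjusted p = 0.0658 and 0.263), but in Granta-519 it was called lower under quantile normalization or library weights (-0.20 each) and higher when scaled to spike-ins (0.55).

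HNRNPD encodes AUF1, which binds AU-rich elements and speeds mRNA decay; its transcript was at 124, 113 and 142 RPKM in Granta-519 shCycD1 libraries, against 182, 209 and 200.3 RPKM in shCtrl libraries. Levels in JeKo-1 were 179, 177 and 183 RPKM in shCycD1 libraries, against 403, 403 and 401 RPKM in shCtrl libraries. Replicates of each JeKo-1 group lay close together and far from the other group, and the changes were -0.64 ± 0.10 (0.11 when scaled to spike-ins) and -1.16 ± 0.06 (limma, adjusted p = 0.00308 and 4.53e-06). HNRNPF, which binds G-rich tracts, fell by 0.55 (Granta-519) and 1.04 (JeKo-1) (adjusted p = 0.000903 and 1.42e-05). Its relatives HNRNPH1 and HNRNPH3 fell by 0.53 and 0.60 in Granta-519, and JeKo-1 changes were -0.48 each (adjusted p = 0.0143, 0.00231, 0.00171 and 0.0018). The JeKo-1 call of HNRNPH1 was lost after GC correction (-0.16, adjusted p = 0.0807). HNRNPH2, the X-linked gene of this subgroup, was not called, at 0.21 in each line (95% intervals 0.02 to 0.40 and -0.22 to 0.64), although in Granta-519 it was called when scaled to spike-ins (0.96), with library weights (0.18) and after GC correction (0.20). HNRNPC, which binds uridine tracts, fell by 0.84 in JeKo-1 (adjusted p = 4.03e-05), with 208, 201 and 223 RPKM in shCycD1 libraries and 371, 376 and 387 RPKM in shCtrl libraries. In Granta-519 its change of -0.30 (adjusted p = 0.028) was no longer called without shCycD1 replicate 1 (-0.30) or shCycD1 replicate 2 (-0.26). That call was also lost after GC correction (limma, adjusted p = 0.057) or with the replicate block (adjusted p = 0.0743). HNRNPU, a scaffold attachment factor, was at 374, 359 and 366 RPKM in Granta-519 shCycD1 libraries, against 452, 460.3 and 459 RPKM in shCtrl libraries. In the JeKo-1 line the values were 94, 97.1 and 94.6 RPKM in shCycD1 libraries, against 177, 171 and 181 RPKM in shCtrl libraries. No libraries overlapped, and the changes were -0.32 and -0.88 (adjusted p = 0.0063 and 2.23e-05). HNRNPM, HNRNPR and HNRNPL were also called lower in both lines, at -0.59, -0.55 and -0.51 in Granta-519 and -0.88, -0.65 and -0.54 in JeKo-1. When scaled to spike-ins, the Granta-519 changes of HNRNPF, HNRNPH1, HNRNPH3, HNRNPC, HNRNPU, HNRNPM, HNRNPR and HNRNPL were positive, from 0.15 to 0.45.

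HNRNPK, a poly(C)-binding protein, was called lower in JeKo-1 (-0.36, adjusted p = 0.0014) and not in Granta-519 (-0.12, adjusted p = 0.231). The JeKo-1 change was -0.07 under quantile normalization (adjusted p = 0.514) and -0.49 when scaled to spike-ins (adjusted p = 0.316), and that scaling gave 0.63 in Granta-519 (adjusted p = 0.0262). HNRNPUL1 was called lower in both lines by a narrow margin, at -0.28 and -0.17 (adjusted p = 0.0128 and 0.0487), and at 0.47 in Granta-519 when scaled to spike-ins. Its Granta-519 call was lost without shCtrl replicate 1 (-0.26) or shCycD1 replicate 1 (-0.27). In JeKo-1 it was lost without any library but shCtrl replicate 3, at -0.13 and -0.18 without shCtrl replicates 1 and 2, and -0.18, -0.17 and -0.17 without shCycD1 replicates 1, 2 and 3. The JeKo-1 change of HNRNPUL1 was -0.01 under quantile normalization (adjusted p = 0.83). HNRNPUL2 was called in neither line (0.06 and -0.01), but in Granta-519 when scaled to spike-ins (0.81, adjusted p = 0.00735) and in JeKo-1 after GC correction (-0.22, adjusted p = 0.0363). Several rows are near-copies of expressed genes, and counting could have split reads among them. Of these, HNRNPA1L2, HNRNPA1P10, HNRNPA1P33 and HNRNPA3P1 were called lower in both lines, from -0.59 to -0.36 in Granta-519 and from -0.90 to -0.52 in JeKo-1, with Granta-519 changes of 0.16 to 0.38 when scaled to spike-ins. They cannot be counted as evidence apart from HNRNPA1 and HNRNPA3. HNRNPCL1, a near-copy of HNRNPC, was at 139.8, 119 and 136 RPKM in Granta-519 shCycD1 libraries, against 155, 174 and 157 RPKM in shCtrl libraries (-0.30, adjusted p = 0.0326). In JeKo-1 it was listed at no more than 1.71e-06 RPKM in any library and was not tested. Its Granta-519 call held without shCycD1 replicate 1 only; the change was -0.33, -0.25 and -0.32 without shCtrl replicates 1, 2 and 3, and -0.23 and -0.32 without shCycD1 replicates 2 and 3. HNRNPKP3, a pseudogene of HNRNPK, was not called in Granta-519 (-0.31, adjusted p = 0.174; called at -0.48 without shCycD1 replicate 3) and lay under the filter in JeKo-1.

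SF3A and SF3B genes had the smallest median changes of the families on the scale as deposited, except in JeKo-1 after GC correction, where the median was -0.33 for SF3 and -0.21 for SRSF. In Granta-519, 2 of 9 were called lower and 1 higher, and in JeKo-1 4 were called lower and 0 higher, with median changes of -0.10 (0.64 when scaled to spike-ins) and -0.13. The JeKo-1 count was 2 lower without shCtrl replicate 1 or any shCycD1 replicate, 1 under quantile normalization, 5 after GC correction and 0 when scaled to spike-ins, and the Granta-519 count was 1 without shCycD1 replicate 1 and 6 with library weights. SF3B1, the largest SF3B subunit and a gene often mutated in blood cancers, was called in neither line. It was at 53.7, 62 and 69.4 RPKM in Granta-519 shCycD1 libraries, against 68.1, 58.7 and 80.9 RPKM in shCtrl libraries. JeKo-1 values were 141, 141 and 135 RPKM in shCycD1 libraries, against 147, 132 and 160.2 RPKM in shCtrl libraries. The groups overlapped in both lines, and the changes were -0.16 and -0.07 (95% intervals -0.50 to 0.18 and -0.27 to 0.12). SF3A1 and SF3B3 were likewise not called in either line, between -0.13 and 0.01. SF3A1 was called lower in JeKo-1 after GC correction (-0.30) and the pair in Granta-519 with library weights (-0.17 and -0.15), and when scaled to spike-ins both were higher there (0.67 and 0.64). SF3A3, which encodes another SF3A subunit, was called lower in both lines, at -0.29 (adjusted p = 0.0156; 0.46 when scaled to spike-ins) and -0.57 (adjusted p = 0.000162). Its Granta-519 call was lost without shCycD1 replicate 1 (-0.29, adjusted p = 0.0537).

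SF3A2 was at 59.7, 54.4 and 56.8 RPKM in Granta-519 shCycD1 libraries, against 71, 77.3 and 70.7 RPKM in shCtrl libraries (-0.36, adjusted p = 0.00802; 0.39 when scaled to spike-ins). In JeKo-1 its groups overlapped, at 87.1, 83 and 94.7 RPKM in shCycD1 libraries, against 103, 83.1 and 71.1 RPKM in shCtrl libraries. The JeKo-1 change was 0.06 (adjusted p = 0.73) and became -0.60 (adjusted p = 0.000898) when values were corrected for GC content. SF3B14, an older symbol of SF3B6, which encodes the protein that touches the branch-point adenosine, was called lower in JeKo-1 (-0.32, adjusted p = 0.00475) and not in Granta-519 (0.06, adjusted p = 0.631). The JeKo-1 change was -0.10 under quantile normalization (adjusted p = 0.276) and -0.44 when scaled to spike-ins (adjusted p = 0.354), and that scaling gave a call of 0.81 in Granta-519 (adjusted p = 0.0106). SF3B2 and SF3B4 were called lower in JeKo-1 by a narrow margin, at -0.20 and -0.22 (adjusted p = 0.0369 and 0.0388), and not in Granta-519, where spike-in scaling gave 0.66 and 0.58 and library weights -0.13 and -0.23, all called. Both JeKo-1 calls were lost under quantile normalization (-0.01 and -0.15), and that of SF3B2 after GC correction (-0.17). The SF3B2 call held only without shCtrl replicate 2; otherwise the change ran from -0.21 to -0.16, without shCtrl replicates 1 or 3 or any shCycD1 replicate. The SF3B4 call held only without shCtrl replicate 3; otherwise it ran from -0.25 to -0.17, without shCtrl replicates 1 or 2 or any shCycD1 replicate. SF3B5, a small SF3B subunit, was at 1628, 1494 and 1597 RPKM in Granta-519 shCycD1 libraries, against 1298, 1394 and 1245 RPKM in shCtrl libraries. All shCycD1 libraries were above all shCtrl libraries, and the gene was called higher (0.26, adjusted p = 0.0362). That call was lost without shCtrl replicate 1 (0.25) or 3 (0.22) and without shCycD1 replicate 1 (0.24) or 3 (0.25), and also with no filter (0.26), median ratio scaling (0.23) or GC correction (0.21); scaled to spike-ins it was 1.01. In JeKo-1 its change was -0.02 (95% interval -0.18 to 0.14), and -0.36 (adjusted p = 0.00118) after GC correction.

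Calls among the SNRP genes were more numerous in JeKo-1, as they were over all genes (64.6% called, against 40.6% in Granta-519). In Granta-519, 6 of 12 tested were called lower and 0 higher, with a median of -0.33 (0.42 when scaled to spike-ins), and in JeKo-1 11 were called lower and 1 higher, with a median of -0.73. The Granta-519 count was 2 lower without shCycD1 replicate 1 or 2, 3 without shCtrl replicate 3 and 3 after GC correction, and the JeKo-1 count was 7 lower when scaled to spike-ins. SNRPA encodes protein A of the U1 particle. It was at 23.6, 22.9 and 27.2 RPKM in Granta-519 shCycD1 libraries, against 44.4, 46.8 and 45.1 RPKM in shCtrl libraries. The JeKo-1 levels were 48, 41.5 and 48.3 RPKM in shCycD1 libraries, against 89.9, 75.5 and 74.6 RPKM in shCtrl libraries. No libraries overlapped, and the changes, -0.88 ± 0.08 and -0.79 ± 0.10 (limma, adjusted p = 0.000464 and 0.000415), differed by -0.09 ± 0.13 (Granta-519 minus JeKo-1). When scaled to spike-ins, the Granta-519 change was -0.14 (adjusted p = 0.68). SNRPC, encoding protein C of U1, was called lower at -0.36 in each line (adjusted p = 0.0231 and 0.0104). Its Granta-519 call was lost without shCtrl replicate 1 (-0.38), shCycD1 replicate 1 (-0.38) or shCycD1 replicate 2 (-0.30), and its JeKo-1 call under quantile normalization (-0.21, adjusted p = 0.0515). The replicate block also ended the Granta-519 call of SNRPC (limma, adjusted p = 0.073). Of the U2 proteins, SNRPA1 fell by 0.71 in JeKo-1 (limma, adjusted p = 5.66e-05). Its Granta-519 change of -0.26 (adjusted p = 0.0315) was called with all 6 libraries and without shCtrl replicate 1. Without shCtrl replicates 2 or 3 or any shCycD1 replicate it ran from -0.28 to -0.20 and was not called. With all 6 libraries, the SNRPA1 call was lost under GC correction (-0.27, limma, adjusted p = 0.0611) or the replicate block (-0.26, adjusted p = 0.0628). SNRPB2 fell by 0.72 in JeKo-1 cells (adjusted p = 0.000151), and its change in Granta-519 was not called (-0.15, adjusted p = 0.368).

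The Sm core proteins are made from SNRPB, SNRPD1, SNRPD2, SNRPD3, SNRPE, SNRPF and SNRPG, and all 7 genes were called lower in JeKo-1. SNRPB was at 111, 97 and 115 RPKM in Granta-519 shCycD1 libraries, against 183, 187 and 177 RPKM in shCtrl libraries. In JeKo-1 it was at 301, 356 and 308 RPKM in shCycD1 libraries, against 563, 557 and 489 RPKM in shCtrl libraries. It was the Sm gene with the largest change in Granta-519, at -0.76 ± 0.08, and changed by -0.74 ± 0.09 in JeKo-1 (adjusted p = 0.000731 and 0.000362), with a Granta-519 change of -0.01 when scaled to spike-ins. SNRPE was at 67.8, 56 and 66 RPKM in Granta-519 shCycD1 libraries, against 63, 75 and 68.1 RPKM in shCtrl libraries. In the JeKo-1 line the values were 56.1, 63.6 and 63 RPKM in shCycD1 libraries, against 112, 141 and 134 RPKM in shCtrl libraries. The Granta-519 groups overlapped (-0.12, adjusted p = 0.39; 0.63 when scaled to spike-ins, adjusted p = 0.0489), whereas the JeKo-1 groups were apart (-1.07 ± 0.10, adjusted p = 0.000114). There SNRPG fell by 1.01 (limma, adjusted p = 5.77e-05), SNRPF by 0.90 (adjusted p = 5.23e-05), SNRPD1 by 0.88 (adjusted p = 3.65e-05) and SNRPD3 by 0.59 (adjusted p = 0.00065). SNRPD2 was called lower too (-0.25, adjusted p = 0.0281), but not without shCtrl replicates 1 or 2 (-0.23 each) or shCycD1 replicates 1 (-0.25) or 3 (-0.18), or under quantile normalization (-0.02), which gave a call in Granta-519 (-0.27). In Granta-519 SNRPF (-0.55, adjusted p = 0.0474) and SNRPG (-0.40, adjusted p = 0.0333) were called lower with all libraries, and SNRPF, SNRPG, SNRPC and SNRPA1 were at 0.20, 0.34, 0.38 and 0.48 when scaled to spike-ins. SNRPF lost that call without shCtrl replicates 2 (-0.41) or 3 (-0.55) or shCycD1 replicates 1 (-0.50) or 2 (-0.45), and with library weights (-0.23). SNRPG lost it without shCtrl replicate 3 (-0.42) or shCycD1 replicates 1 (-0.44), 2 (-0.35) or 3 (-0.42). With no filter, the replicate block or GC correction, neither gene was called. The SNRPF groups overlapped in Granta-519, at 62.1 RPKM in shCycD1 replicate 3 against 60.4 RPKM in shCtrl replicate 1. SNRPD1, SNRPD2 and SNRPD3 were not called in Granta-519 (-0.35, -0.23 and -0.31), and without shCycD1 replicate 3 SNRPD1 (-0.46) and SNRPD3 (-0.38) were. SNRPD2P2, a pseudogene, was listed at 0 in all JeKo-1 libraries and at no more than 0.693 RPKM in Granta-519.

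SNRPN encodes SmN, a tissue-restricted relative of the SNRPB product, from an imprinted locus that it shares with SNURF. It was at 8.65, 7.91 and 9.08 RPKM in Granta-519 shCycD1 libraries, against 6.83, 8.2 and 6.83 RPKM in shCtrl libraries. JeKo-1 values were 151, 151 and 143 RPKM in shCycD1 libraries, against 94.3, 84.7 and 82.9 RPKM in shCtrl libraries. The JeKo-1 groups were well apart (0.76 ± 0.07, limma, adjusted p = 0.000108), making SNRPN the only SNRP gene called higher there (0.63 when scaled to spike-ins, adjusted p = 0.152), and the Granta-519 groups overlapped (0.22, adjusted p = 0.13; called at 0.30 without shCtrl replicate 2, 0.32 with library weights and 0.93 when scaled to spike-ins). SNURF, which overlaps it, was looked at for this reason and had changes of 0.35 in Granta-519 (adjusted p = 0.0118; not called without shCycD1 replicate 3, at 0.31) and 0.33 in JeKo-1 (adjusted p = 0.25), and how reads were divided between the pair is not given in the sources used here.

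**Figure D3:**
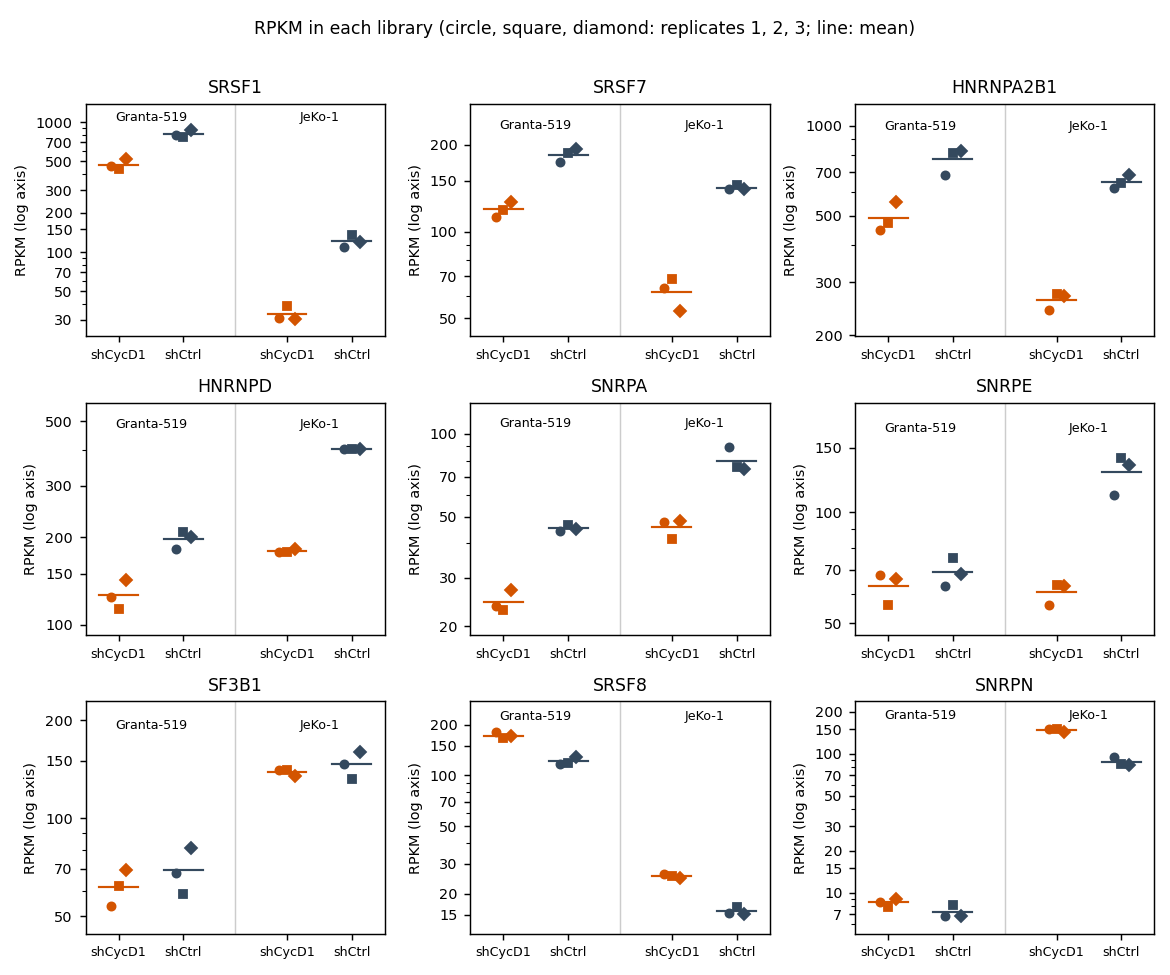
RPKM of 9 members in each library (log axis; circle, square and diamond for replicates 1, 2 and 3, line for the mean), with shCycD1 left of shCtrl in Granta-519 and then in JeKo-1. SRSF1, SRSF7, HNRNPA2B1, HNRNPD and SNRPA are separated between groups in both lines, SNRPE and SNRPN in JeKo-1 only, SF3B1 in neither, and SRSF8 is higher in shCycD1 libraries of both lines, all on the scale as deposited and not that of the spike-ins, under which Granta-519 changes such as HNRNPD (0.11) turn positive.

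The lines were then compared by testing the difference of their changes, Granta-519 minus JeKo-1, in a fit of all 12 libraries. No library is shared between the lines. Under the natural logarithm, 83.6% to 89.6% of low values lay near whole-read steps in Granta-519, against 28.5% to 31.9% in JeKo-1. Reads may thus have been counted differently in the lines. A difference in counting cannot be told apart here from a difference between the lines. Of the 54 members tested in both, 22 differed (limma, adjusted p under 0.05), where 41.9% of 10653 genes did. For 21 of them the difference was positive, against 19.3% of all genes, meaning a change that was less negative, or more positive, in Granta-519, and for 1, SNRPN, it was negative (-0.54, adjusted p = 0.00446), against 22.6%. The count, 22 of 54, is thus near the share for all genes, and the direction was mostly one way. Over all genes tested in each line, the median absolute change was 0.27 in Granta-519 and 0.45 in JeKo-1. The part of these larger JeKo-1 changes in that direction was not tested. By family, 4 of 11 SRSF, 9 of 22 HNRNP, 3 of 9 SF3 and 6 of 12 SNRP genes differed. The largest differences were those of SRSF1 (1.06 ± 0.15, adjusted p = 0.000269), SNRPE (0.95 ± 0.15, adjusted p = 0.000525), SRSF3 (0.69 ± 0.11, adjusted p = 0.000477), SRSF10 (0.67 ± 0.19, adjusted p = 0.0138) and HNRNPA2B1 (0.66 ± 0.14, adjusted p = 0.00343). CCND1 itself had changes of -1.83 (Granta-519) and -2.38 (JeKo-1), or -1.08 and -2.51 when scaled to spike-ins. Its part in these differences was not tested. Read as logs to base 2, in place of the natural log that returned rounded numbers, JeKo-1 would have a members' median of -0.40. In that case 10 members would differ. Over the 54 members the changes of the lines had Pearson's r of 0.80 and Spearman's rho of 0.77, and 46 (85.2%) had the same sign, against r of 0.56 and 70.2% over 10653 genes; this describes genes, which are not independent replicates.

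**Figure D4:**
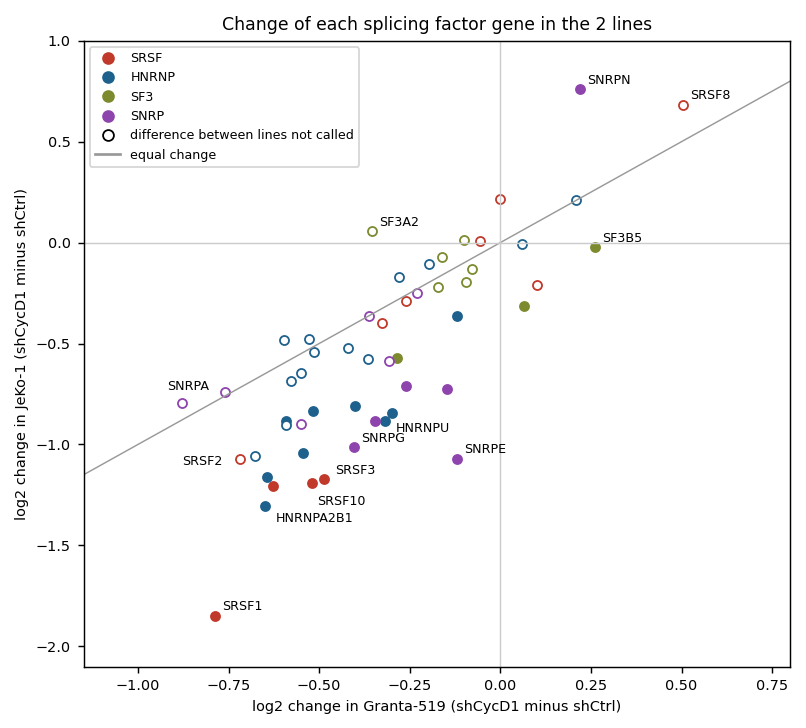
Log2 change (shCycD1 minus shCtrl) of each of 54 members in Granta-519 (horizontal) and JeKo-1 (vertical), coloured by family, filled where the difference between the lines had an adjusted p under 0.05, with the line of equal change in grey. Most called members lie below the grey line, SRSF1 farthest down at -1.85 in JeKo-1, and SNRPN lies above it; scaled to spike-ins, the Granta-519 values as a whole move right (median 0.40).

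Genes of the same pathway that the name rule does not choose were described by count, over 8 lists. Together, 53 of 154 tested were called lower and 10 higher in Granta-519, and 78 of 154 lower and 23 higher in JeKo-1. The share called in either direction, 40.9% in Granta-519 and 65.6% in JeKo-1, was near that of all genes (40.6% and 64.6%). The share called lower was 34.4% and 50.6%, against 18.2% and 27.8% of all genes, and the share called higher 6.49% and 14.9%, against 22.4% and 36.7%; the counts by list below are small and stand beside those shares. When scaled to spike-ins, 0 were lower and 59 higher in Granta-519, and 29 lower and 2 higher in JeKo-1. That scaling called 1.24% of all genes lower and 57.9% higher in Granta-519, and 15.1% lower and 14.3% higher in JeKo-1. Single libraries mattered here too, with 32 lower in Granta-519 without shCycD1 replicate 1, 5 higher without shCycD1 replicate 1 or shCtrl replicate 1, and 6 higher without shCycD1 replicate 2 or 3; in JeKo-1, 15 were higher without shCycD1 replicate 2. Of 14 U2 recruitment and branch-point genes, 5 were called lower and 1 higher in Granta-519, and 7 lower and 4 higher in JeKo-1. U2AF1, which reads the AG of the 3′ splice site, changed by -0.52 in Granta-519 (adjusted p = 0.00239). Its relative U2AF1L4 rose by 0.71 in Granta-519 and 1.10 in JeKo-1 (adjusted p = 0.00174 and 0.000585), and DHX15, a helicase that takes spliceosomes apart, was at -0.87 in JeKo-1 (adjusted p = 5.67e-05). Of the U5 and U4/U6 proteins, 9 of 20 were called lower and 1 higher in Granta-519, and 7 of 19 lower and 2 higher in JeKo-1. In Granta-519, PRPF3 of the U4/U6 particle was at -0.66 (adjusted p = 0.00223) and PRPF40B, a U1-linked protein, at 0.79 (adjusted p = 0.00273). PPIH, a cyclophilin of the U4/U6 particle, was at -1.10 and PRPF8, the core U5 protein, at -0.76 in JeKo-1 (adjusted p = 2.35e-05 and 5.51e-05). Of 7 LSM genes, LSM1 to LSM7, whose products form rings on the U6 snRNA or, with LSM1, on mRNAs bound for decay, 3 were called lower and 0 higher in Granta-519, with LSM2 at -0.64 (adjusted p = 0.0028) and LSM4 at -0.51 (adjusted p = 0.0167; not called without shCycD1 replicate 1 at -0.49 or 2 at -0.46). In JeKo-1 6 of the 7 were called lower and 1 higher, with LSM3 at -1.02 (adjusted p = 5.21e-05) and LSM5 at -0.90 (adjusted p = 0.000236).

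Genes of snRNP assembly were called lower for 3 of 19 and higher for 1 in Granta-519, and for 12 and 2 in JeKo-1. GEMIN4 of the SMN complex was at -0.65 and NCBP2, a subunit of the cap-binding complex, at 0.51 in Granta-519 (adjusted p = 0.0021 and 0.00268). In JeKo-1 NCBP1, its partner subunit, was at -1.05 (adjusted p = 2.35e-05) and GEMIN6 at -0.44 (adjusted p = 0.00179). The PRP19 complex, step II factors and helicases had 5 of 22 lower and 2 higher in Granta-519, and 10 lower and 3 higher in JeKo-1. PLRG1, a core PRP19 complex protein, was at -1.17 in JeKo-1 (adjusted p = 3.22e-05), and SYF2, another spliceosome protein, at 0.53 in Granta-519 (adjusted p = 0.00883). Among 20 SR protein kinases and SR-like factors, 6 were lower and 2 higher in Granta-519, and 5 lower and 5 higher in JeKo-1. CLK3, a kinase that phosphorylates SR proteins, rose by 1.22 in JeKo-1 (adjusted p = 1.27e-05). TRA2B, an SR-like enhancer-binding protein, changed by -0.57 in Granta-519 cells (adjusted p = 0.00116). LUC7L2, a U1-associated protein, was at -1.20 in JeKo-1 (adjusted p = 0.000245). Other regulators of alternative splicing had 14 of 32 lower and 2 higher in Granta-519, among them MBNL3, a muscleblind-like splicing regulator, at -0.72 (adjusted p = 0.00887). In JeKo-1 20 of 33 were lower and 4 higher, among them SFPQ, a paraspeckle protein, at -1.16 (adjusted p = 0.000107) and PTBP3, a polypyrimidine-tract-binding protein, at -1.14 (adjusted p = 9.45e-05). Exon junction and export genes had 8 of 20 lower and 1 higher in Granta-519, and 11 lower and 2 higher in JeKo-1. MAGOHB, an exon junction core protein, was at 2.04, 2.54 and 2.38 RPKM in JeKo-1 shCycD1 libraries, against 10, 11.2 and 10.6 RPKM in shCtrl libraries. Its changes were -0.71 (Granta-519) and -1.98 (JeKo-1), and those of DDX39A, an export helicase, were -0.86 and -1.35 (limma, adjusted p = 0.00496, 6.83e-06, 0.000232 and 2.38e-05). The median changes of these 8 lists ran from -0.22 to -0.05 in Granta-519 and from -0.62 to -0.07 in JeKo-1, against 0.03 and 0.09 over all genes. When scaled to spike-ins, the medians of all 8 lists were positive in Granta-519, from 0.52 to 0.68, against 0.72 over all genes.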

How the data were processed

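Poly(A) RNA of 12 libraries was sequenced with a stranded kit, per the labels' protocols, and read processing used FastQC, TopHat2 2.1.1 and limma 3.9 with GRCh37/hg19, per the submitters' processing notes, which give no order or settings. The authors deposited gene values per line as a log of RPKM + 1, read here as the natural log; no source used here gives total reads, so depth is unknown and no counting interval is given. Values were returned to RPKM and tested in each line with limma 3.58.1 (R 4.3.3; lmFit, eBayes with trend) on log2(RPKM + 0.5), which understates changes of low genes, for genes with at least 1 RPKM in 3 or more of 6 libraries; p-values were Benjamini-Hochberg adjusted over all tested genes, with calls under 0.05. A fit of all 12 libraries with 4 group means tested the difference between lines. A symbol on several rows was represented by the row with the highest mean; 0 columns were left unused. The fits were tested on simulated data. The genes named are, by rule, the 6 members with the largest called changes in each direction and line and the 6 largest differences, the member with the highest mean in each family, members on several rows or under the filter, and the 2 largest called changes in each related list and line; other members were named to account for every gene. A related gene that the rule names is not reported here. Members and lists were chosen with earlier results of these data known. For the spike-in alternative, libraries were scaled by the median log2 deviation of ERCC RNAs at a mean of 1 RPKM or more; 91.1% and 91.7% of tested genes (57 of 58 members) had a GC content.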

Additional observations from a re-analysis of the deposited data

Results flagged for a closer look

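The change differed between the lines, by a test of the difference itself (Granta-519 change minus JeKo-1 change, limma on 12 libraries, adjusted p under 0.05), for 22 of 54 members, where 41.9% of all genes differed. A positive value means a less negative or more positive change in Granta-519. Reads may have been counted differently in the lines, which cannot be told apart from a difference between them. The values for SRSF1 (1.06), SNRPE (0.95) and SRSF3 (0.69) remained called under all 25 alternatives, with ranges of 0.52 to 1.94, 0.64 to 1.83 and 0.34 to 1.57. The differences of HNRNPA2B1 (0.66), SRSF7 (0.58) and HNRNPF (0.50) were lost only if JeKo-1 values were read as log2, and that of SRSF10 (0.67) under that reading or GC correction. The values for SNRPG (0.61), SNRPB2 (0.58), HNRNPU (0.57), HNRNPC (0.55), SNRPD1 (0.54), HNRNPD (0.52), SNRPA1 (0.45) and SF3A3 (0.29) were lost under 2 to 4 of the alternatives and under none that left out a library.

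The remaining positive differences depended on single libraries. HNRNPA1 (0.41) was lost without Granta-519 shCtrl replicates 1 or 3, Granta-519 shCycD1 replicates 1 or 3, JeKo-1 shCtrl replicate 2 or any JeKo-1 shCycD1 replicate, at 0.31 to 0.41. SF3B14 (0.38) was lost without Granta-519 shCtrl replicate 1 (0.33), Granta-519 shCycD1 replicate 1 (0.31) or JeKo-1 shCycD1 replicate 1 (0.33). HNRNPA3 (0.32) was lost without Granta-519 shCtrl replicates 1 or 2, Granta-519 shCycD1 replicate 3, JeKo-1 shCtrl replicates 2 or 3 or any JeKo-1 shCycD1 replicate, at 0.24 to 0.34. HNRNPM (0.29) was lost without Granta-519 shCtrl replicates 2 or 3, Granta-519 shCycD1 replicates 1 or 3, JeKo-1 shCtrl replicates 1 or 3, or JeKo-1 shCycD1 replicates 2 or 3, at 0.25 to 0.30. SF3B5 (0.28) was lost without Granta-519 shCtrl replicates 1 or 3, Granta-519 shCycD1 replicates 1 or 3, JeKo-1 shCtrl replicates 1 or 2, or JeKo-1 shCycD1 replicates 2 or 3, at 0.25 to 0.28. HNRNPK (0.25) was lost without Granta-519 shCtrl replicates 1 or 3, Granta-519 shCycD1 replicates 1 or 3, any JeKo-1 shCtrl replicate, or JeKo-1 shCycD1 replicates 1 or 2, at 0.21 to 0.27. SNRPN (-0.54) was the only member whose called difference was negative, and of the 25 alternatives only spike-in scaling ended that call.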

How the results depend on the processing

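Scaling to spike-ins changed the Granta-519 results most, and the cause was not tested: members called higher numbered 16 and lower 0, with a median of 0.40, and 0, 23 and -0.70 in JeKo-1. Related genes called higher numbered 59 and lower 0 in Granta-519, and 2 and 29 in JeKo-1. Over all genes the shares called higher and lower were 57.9% and 1.24% in Granta-519, and 14.3% and 15.1% in JeKo-1. Family medians in Granta-519 became 0.40 (SRSF), 0.25 (HNRNP), 0.64 (SF3) and 0.42 (SNRP). Related medians there became 0.57 (U2 recruitment), 0.54 (U5 and U4/U6), 0.53 (LSM), 0.68 (snRNP assembly), 0.67 (PRP19), 0.63 (SR-like), 0.52 (other regulators) and 0.52 (exon junction and export). Signs reversed there for HNRNPA0 0.55, HNRNPA1 0.35, HNRNPA1L2 0.38, HNRNPA1P10 0.33, HNRNPA1P33 0.17, HNRNPA2B1 0.10, HNRNPA3 0.23, HNRNPA3P1 0.16, HNRNPAB 0.073, HNRNPC 0.45, HNRNPCL1 0.45, HNRNPD 0.11, HNRNPF 0.20, HNRNPH1 0.22, HNRNPH3 0.15, HNRNPK 0.63, HNRNPL 0.24, HNRNPM 0.15, HNRNPR 0.19, HNRNPU 0.43 and HNRNPUL1 0.47. They also reversed for SF3A1 0.67, SF3A2 0.39, SF3A3 0.46, SF3B2 0.66, SF3B3 0.64, SF3B4 0.58, SNRPA1 0.48, SNRPC 0.38, SNRPE 0.63, SNRPF 0.20, SNRPG 0.34, SRSF2 0.034, SRSF3 0.27, SRSF4 0.40, SRSF5 0.75, SRSF7 0.12, SRSF9 0.69 and SRSF10 0.23. Among related genes, U2AF1 0.23, PRPF3 0.066, LSM2 0.10, LSM4 0.23, GEMIN4 0.092, ISY1 0.32, TRA2B 0.18, LUC7L 0.19 and MAGOHB 0.015 reversed, and so did the difference of SNRPN (0.29).

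Members called higher in Granta-519 numbered 1 with no filter, median ratio scaling, the replicate block or the block with GC correction, and 4 with library weights. The JeKo-1 median was -0.54 with no filter, GC correction, or the replicate block with GC correction, -0.40 with quantile normalization or JeKo-1 read as log2, and -0.66 with median ratio scaling. Members called higher in JeKo-1 numbered 4 with the block and GC correction, and 10 members differed between the lines if JeKo-1 was read as log2. Related genes called higher numbered 6 with the block and 20 with library weights in Granta-519, and 14 with median ratio scaling in JeKo-1. SF3A2 in JeKo-1 reversed to -0.60 with GC correction, with or without the block. The differences of HNRNPK (-0.068) and SNRPD2 (-0.26) reversed under quantile normalization, that of SRSF11 (-0.28) under the block with GC correction, and the median of SR-like genes in JeKo-1 (0.013) under quantile normalization. The causes were not tested.

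Leaving out 1 library at a time gave 26 to 33 members lower, 1 to 3 higher and medians of -0.37 to -0.28 in Granta-519, 36 to 39 lower, 2 higher and medians of -0.58 to -0.54 in JeKo-1, and 17 to 24 differences. Related genes numbered 32 to 54 lower and 5 to 10 higher in Granta-519, and 69 to 75 lower and 15 to 20 higher in JeKo-1.

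Deviations of same-numbered libraries correlated at 0.0055, -0.12 and 0.033 in Granta-519, with mixed signs. The JeKo-1 correlations were 0.19, 0.095 and 0.10, all positive. Adding the replicate block lowered the shares of all genes called higher and called lower in Granta-519, and raised both in JeKo-1. Whether replicate numbers mark paired libraries was not tested. With the replicate block, 26 members were lower in Granta-519, 42 in JeKo-1 and 19 differed. With GC correction added, the numbers were 24, 43 and 15. The block ended the Granta-519 lower calls of HNRNPA1, HNRNPC, HNRNPCL1, SNRPA1, SNRPC, SNRPF and SNRPG, and the higher call of SF3B5. Adding GC correction to it also ended those of HNRNPA1P10, HNRNPU and SRSF4. Outside spike-in scaling, 21 of 33 lower calls in Granta-519 and 32 of 40 in JeKo-1 were kept under every alternative run. Unknown depth and 3 libraries a group limit the precision.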
